A study of Mus musculus with 9 samples.

Results

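Expression of 9 genes that encode myeloid transcription factors, Spi1, Irf1, Irf5, Irf8, Runx1, Cebpa, Cebpb, Mitf and Tfec, was followed through mouse brain RNA-seq libraries. They were chosen by name, with earlier results of these data known. All 9 were found among the 55401 genes of the deposited table. Tissue was taken around the infarct at day 28 after photothrombosis (PT), which blocks cortical vessels with light and a photosensitive dye, or from sham-operated mice. All mice were labelled WT. The Pushen group had PT followed by gavage with Pushen, a commercial drug preparation, begun the day after surgery and labelled 391, 392 and 393 mg/kg in its 3 libraries, which were treated as 1 group. The PT group had PT and ultrapure water, and the Sham group had the sham operation and ultrapure water, with 3 libraries each. Separate animals are not stated for the libraries, so the p-values speak to variation from library to library, part of which could be technical. The labels give neither age nor sex.

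Counts summed to between 57437342 and 75100133 per library. The extraction protocol in the labels speaks of retinas, but the summed level of 7 photoreceptor genes was at most 0.43 FPKM in any library. FPKM is the count scaled to gene length and library size. Summed neuronal markers reached 374 to 526 FPKM in PT and 682 to 771 FPKM in Sham libraries. Choroid plexus markers were uneven, at 547 FPKM in PT library 1 and 629 FPKM in Pushen library 2, against at most 152 FPKM elsewhere. Leaving both libraries out changed no call of the tested members. In bulk tissue, a difference in the number of cells of a type and a difference in RNA per cell cannot be told apart.

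PU.1, the ETS-family protein encoded by Spi1, is needed for macrophages and microglia to form and opens chromatin at myeloid enhancers. RUNX1 acts before it in blood stem cells, C/EBP alpha and C/EBP beta share many of its enhancers, and IRF8 binds DNA as its partner. IRF1 and IRF5 act downstream of interferon and Toll-like receptor signals, while MITF and TFEC belong to the MiT family of helix-loop-helix factors that drive lysosomal, osteoclast and, for MITF, pigment cell genes. Microglia hold much of the Spi1 and Irf8 mRNA of the healthy brain, whereas Cebpb and Irf1 are also induced in astrocytes and endothelium.

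At day 28, 7 of the 8 factors that could be tested were higher in PT than in Sham tissue, and the same 7 were higher in Pushen than in Sham tissue. Tests used edgeR's quasi-likelihood test on the counts of the 16740 genes that averaged 0.5 FPKM or more, with Benjamini-Hochberg adjustment, and an adjusted p under 0.05 was called. Runx1, at a mean of 0.507 FPKM, lay just inside this filter, and Tfec, at 0.132 FPKM, was the 1 member outside it. With a Sham mean of 0.07 FPKM, Runx1 passed only through its infarct libraries. Its place among the tested members is thus not independent of its rise. Of the 8 members tested, 7 rose in PT against Sham, where 19.1% of all tested genes were called higher and 11.8% lower, 30.9% in all. The same number, 7 of 8, were called higher in Pushen against Sham, where 13.5% of all tested genes were called higher and 2.73% lower, 16.2% in all. These comparisons share the Sham libraries. None of the 8 was called in Pushen against PT, where 0% of all tested genes were called in either direction. For those 7 members every PT and every Pushen library lay above every Sham library, which held for 26.2% of tested genes in PT against Sham (a further 23.4% lay wholly below) and for 23.1% in Pushen against Sham (19.6% below). Between Pushen and PT, 1086 genes had an unadjusted p under 0.05 with edgeR, and DESeq2 called 49. The number of genes called higher or lower was 5176 in PT against Sham, but 3198 without Sham library 1 and 3365 without Sham library 2. In Pushen against Sham it was 2718, but 1660, 1538, 1568 and 1594 when Sham library 1, Sham library 2, Pushen library 1 and Pushen library 2 were left out in turn.

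**Figure D1:**
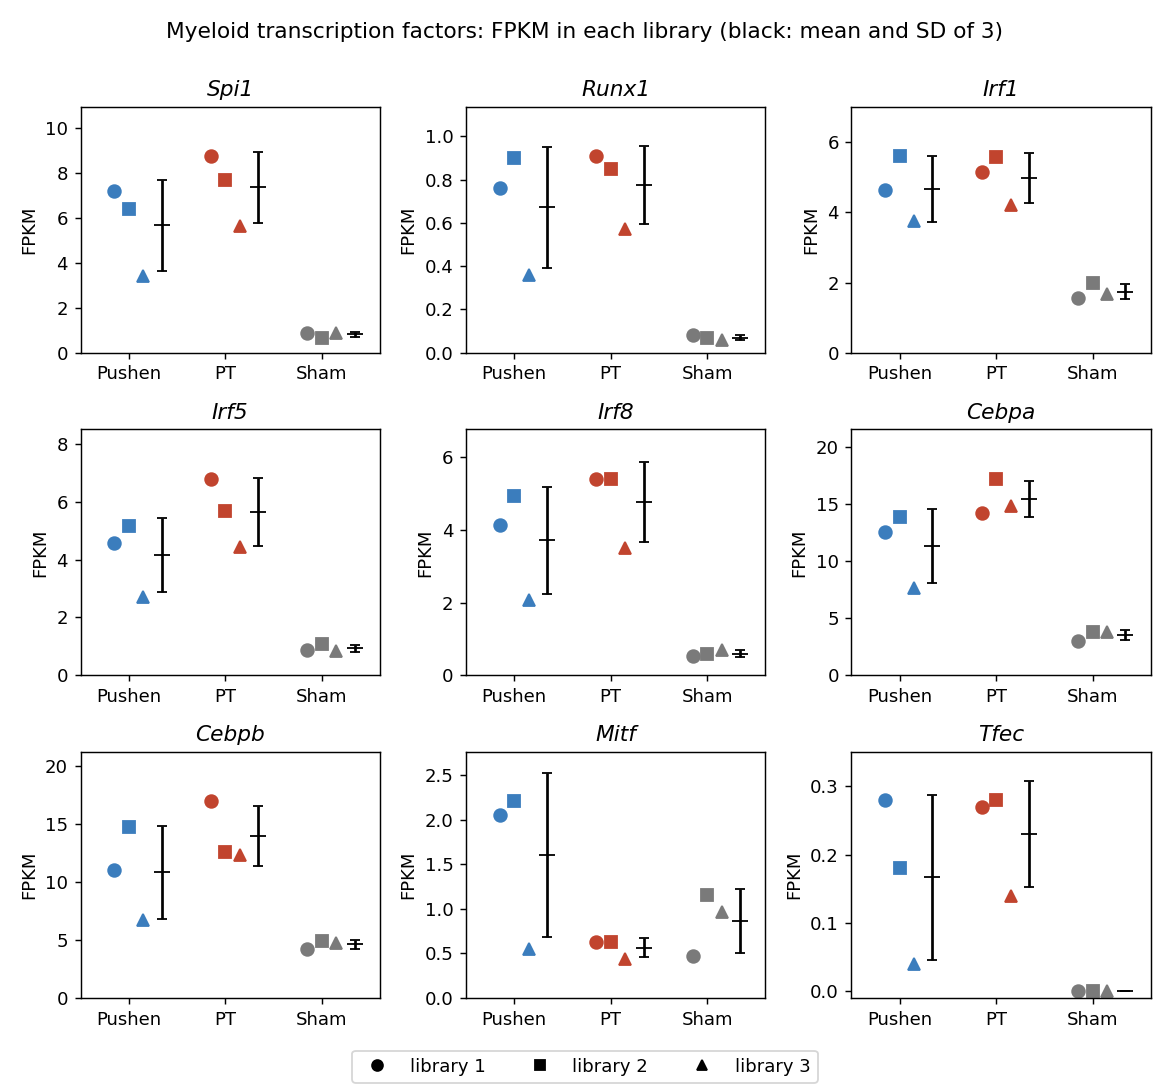
FPKM of each of the 9 factors (vertical axis, linear, own scale in each panel) in the 3 libraries of Pushen, PT and Sham, with the mean and SD of 3 in black. Every infarct library lies above every Sham library for all factors but Mitf, and Pushen library 3 (triangle) is the lowest of the 6 infarct libraries for 8 of 9. Of all tested genes, which leave out Tfec, 26.2% lay wholly above Sham in PT and 23.1% in Pushen.

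Spi1 stood at 7.22, 6.39 and 3.40 FPKM in the Pushen libraries, 8.77, 7.71 and 5.65 FPKM in the PT libraries, and 0.89, 0.67 and 0.88 FPKM in the Sham libraries. All 6 infarct libraries lay far above Sham, and the Pushen and PT libraries overlapped. The mean was 7.38 ± 1.59 FPKM in PT and 0.813 ± 0.124 FPKM in Sham (SD, n = 3 each), and the fitted rise was 8.63-fold. Its log2 fold change was 3.11 ± 0.30 (SE), with an edgeR adjusted p of 0.000461. Pushen against Sham gave 2.72 ± 0.29, with an edgeR adjusted p of 0.000749. In Pushen against PT the difference was -0.39 on the log2 scale with a 95% interval of -1.0 to 0.22, and edgeR's adjusted p was 0.721. The gene lies at chr2:91082390-91114366 on the plus strand in the deposited table, whose coordinates are those of GRCm38.

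Runx1, at chr16:92601466-92826149 on the minus strand, had the lowest mean FPKM of the tested members over all 9 libraries, though not within PT, where Mitf was lower. Its fitted rise in PT against Sham was the largest among the tested members. It was at 0.76, 0.90 and 0.36 FPKM in Pushen, 0.91, 0.85 and 0.57 FPKM in PT, and 0.08, 0.07 and 0.06 FPKM in Sham libraries. No infarct library came near Sham, while Pushen and PT overlapped. The log2 fold change was 3.37 ± 0.35 (SE) in PT against Sham, which is 10.3-fold, with an edgeR adjusted p of 0.000489. It was 3.15 ± 0.35 in Pushen against Sham, with an edgeR adjusted p of 0.000764. On log2(FPKM + 1), which compresses genes as low as this, limma gave 0.73 for PT against Sham and 0.63 for Pushen against Sham. Runx1 made up 31.3 ± 5.04% of the summed FPKM of the 3 RUNX genes in PT and 4.04 ± 0.413% in Sham (SD, n = 3 each). The exact permutation p was 0.1, the smallest that 3 against 3 libraries can give.

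The C/EBP genes were the most abundant members per gene length. Cebpa, at chr7:35119293-35121928 on the plus strand, had 12.52, 13.82 and 7.61 FPKM in Pushen, 14.24, 17.21 and 14.85 FPKM in PT, and 3.02, 3.78 and 3.81 FPKM in Sham libraries. It was the 1 member whose Pushen libraries all lay below all PT libraries, a pattern shown by 5.97% of all tested genes, with 6.25% wholly above. The log2 fold change was 2.07 ± 0.21 (SE) in PT against Sham, with an edgeR adjusted p of 0.000462, and 1.61 ± 0.20 in Pushen against Sham, with an edgeR adjusted p of 0.00127. Pushen against PT gave -0.46 ± 0.20 with a 95% interval of -0.91 to -0.01. Its unadjusted p of 0.0460 did not survive edgeR's adjustment over all genes, at 0.707. Without Pushen library 3 the difference was -0.25.

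Cebpb, an early responder to cytokines at chr2:167688915-167690418 on the plus strand, had 11.07, 14.70 and 6.72 FPKM in Pushen, 16.95, 12.60 and 12.30 FPKM in PT, and 4.18, 4.94 and 4.75 FPKM in Sham libraries. Both infarct groups lay above Sham, with the smallest gap at Pushen library 3. The rise was 1.54 ± 0.26 (SE) on the log2 scale in PT against Sham, with an edgeR adjusted p of 0.00284. In Pushen against Sham it was 1.16 ± 0.25, with an edgeR adjusted p of 0.0150, and this call was lost without Sham library 1 (adjusted p 0.0628) or Sham library 2 (adjusted p 0.0504). Pushen against PT gave -0.38, with a 95% interval of -0.94 to 0.19 and an edgeR adjusted p of 0.718. Cebpb overlaps Tmem189 on the opposite strand, which had 35794 counts over all libraries against 10352 for Cebpb. The strand setting of the counting is not stated, so reads of the overlap could fall to either gene. Tmem189 itself rose by 0.53 ± 0.14 on the log2 scale in PT against Sham (edgeR adjusted p = 0.0205). In Pushen against PT it differed by -0.55 ± 0.14 (edgeR adjusted p = 0.707). Its part in the Cebpb values was not tested.

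The members included 3 interferon regulatory factors. The promoters of 2 of them held the letters TTCNNNGAA, the gamma-activated site of interferon signalling, and are shown with those letters in capitals. The first is Irf1, chr11:53769764-53770013, and the second is Irf8, chr8:120736108-120736357, each the 250 bases before the start on the plus strand (RefSeq, GRCm38.p6), written 5′ to 3′.
Irf1: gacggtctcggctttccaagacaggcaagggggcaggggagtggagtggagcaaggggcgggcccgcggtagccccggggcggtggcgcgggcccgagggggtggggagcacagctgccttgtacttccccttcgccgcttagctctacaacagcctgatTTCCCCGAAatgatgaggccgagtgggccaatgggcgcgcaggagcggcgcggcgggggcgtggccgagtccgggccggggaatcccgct
Irf8: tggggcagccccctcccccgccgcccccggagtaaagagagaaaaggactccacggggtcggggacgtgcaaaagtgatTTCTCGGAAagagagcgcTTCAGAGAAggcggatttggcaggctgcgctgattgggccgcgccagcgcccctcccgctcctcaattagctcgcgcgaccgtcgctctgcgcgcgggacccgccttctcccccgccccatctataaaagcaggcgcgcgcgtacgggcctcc
In the Irf1 window the match runs from -90 to -82, counted backwards from -1 at the base before the start. The Irf8 window holds 2 matches, from -171 to -163 and from -153 to -145. RefSeq windows were found for 8 of the 9 members, 13 windows in all, and no other window of a member held these letters, which 7.02% of 32851 mouse promoter windows hold. Of the other motifs searched, the MiT box CACGTG was in 1 window of Runx1 (6.02% of all windows), the PU.1 core GAGGAA in its other window (23.3%), and the RUNX motif TGTGGT in that of Tfec and 1 of Mitf (14.0%). The interferon response element GAAANNGAAA (2.98%), the letters TTGCNNCAA (1.74%) and the MiT box CATGTG (12.3%) were in none of the members' windows. The letters TTGCNNCAA were listed for C/EBP but are a base longer than its usual site. Their absence therefore does not speak to C/EBP sites, which were not searched. The gamma-activated site TTCNNNGAA reads the same on both strands and overlapped no other motif searched. A match of letters is a description and was not tested as a binding site.

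Irf8, at chr8:120736358-120756694 on the plus strand, was at 4.13, 4.93 and 2.07 FPKM in Pushen, 5.41, 5.41 and 3.49 FPKM in PT, and 0.52, 0.58 and 0.69 FPKM in Sham libraries. It followed nearly the library order of Spi1, with Pushen library 3 and PT library 3 low among the infarct libraries and no overlap with Sham. Its log2 fold change was 2.94 ± 0.32 (SE) in PT against Sham, with an edgeR adjusted p of 0.000529. It was 2.57 ± 0.31 in Pushen against Sham, with an edgeR adjusted p of 0.00108. Against PT, Pushen gave -0.37, with a 95% interval of -1.03 to 0.29 and an edgeR adjusted p of 0.733.

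Irf5, which carries Toll-like receptor signals to inflammatory cytokine genes and lies at chr6:29526625-29541871 on the plus strand, was at 4.58, 5.17 and 2.72 FPKM in Pushen, 6.80, 5.67 and 4.44 FPKM in PT, and 0.88, 1.08 and 0.83 FPKM in Sham libraries. The infarct libraries were all above Sham, and 1 PT library lay within the Pushen range. The rise was 2.54 ± 0.25 (SE) on the log2 scale in PT against Sham, with an edgeR adjusted p of 0.000462, and 2.09 ± 0.25 in Pushen against Sham, with an edgeR adjusted p of 0.00105. The difference between Pushen and PT was -0.45, with a 95% interval of -0.99 to 0.09 and an edgeR adjusted p of 0.707. Irf5 overlaps the end of Tnpo3 on the opposite strand, which had 40810 counts over all libraries against 7303 for Irf5. Tnpo3 differed by 0.03 ± 0.10 on the log2 scale in PT against Sham (edgeR adjusted p = 0.822). As the strand setting is not stated, reads of this overlap too could fall to either gene, and the part of Tnpo3 in the Irf5 values was not tested.

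Irf1, the interferon-induced activator of antigen presentation genes, at chr11:53770014-53777323 on the plus strand, was at 4.65, 5.61 and 3.75 FPKM in Pushen, 5.16, 5.59 and 4.21 FPKM in PT, and 1.56, 1.98 and 1.68 FPKM in Sham libraries. Of the 3 IRF members it was the highest in Sham and had the smallest rise, with the Pushen and PT libraries intermingled. The log2 fold change was 1.46 ± 0.17 (SE) in PT against Sham, with an edgeR adjusted p of 0.000632, and 1.35 ± 0.17 in Pushen against Sham, with an edgeR adjusted p of 0.00118. Pushen against PT gave -0.10, with a 95% interval of -0.48 to 0.27 and an edgeR adjusted p of 0.868. Irf1 overlaps Gm17334 on the opposite strand, which had 615 counts over all libraries against 10597 for Irf1.

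**Figure D2:**
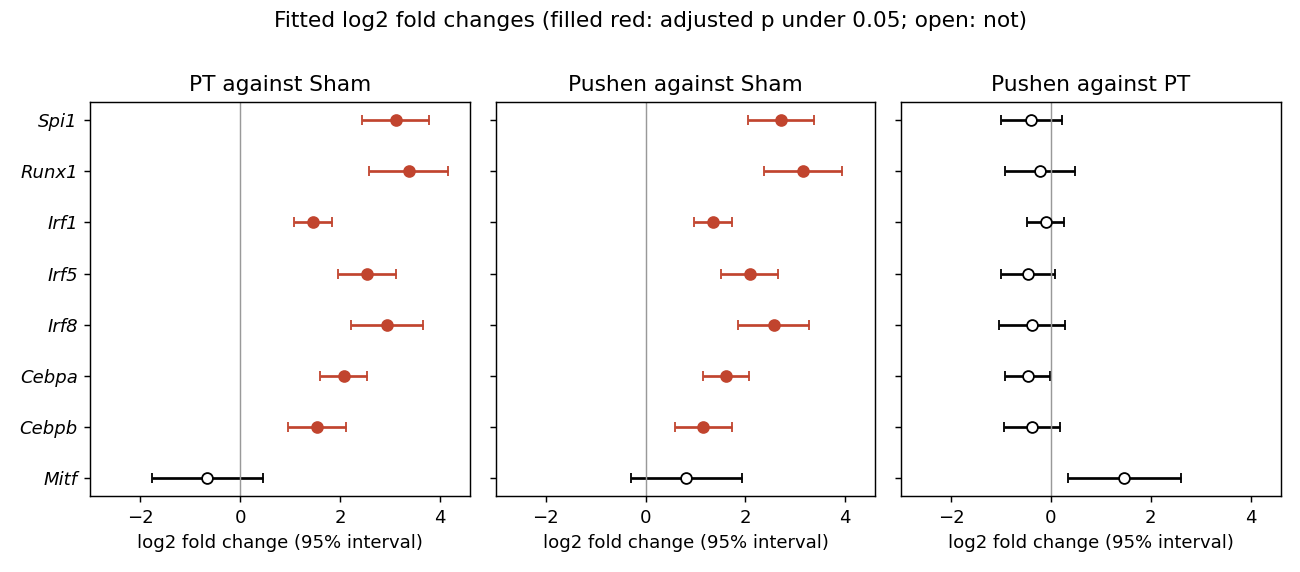
Fitted log2 fold changes of the 8 tested factors (points) with 95% intervals (bars) in PT against Sham, Pushen against Sham and Pushen against PT, filled where the adjusted p is under 0.05. The 7 factors other than Mitf are called in both comparisons with Sham, and none of the 8 is called between Pushen and PT.

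The make-up of the IRF family was described by the share of each gene in the summed FPKM. The 9 IRF genes summed to 34.68, 41.39 and 27.62 FPKM in Pushen, 39.43, 33.12 and 30.06 FPKM in PT, and 11.40, 12.12 and 12.08 FPKM in Sham libraries. Irf5 took 11.8 ± 1.77% of the sum in Pushen, 16.4 ± 1.39% in PT and 7.83 ± 1.02% in Sham (SD, n = 3 each), and its exact permutation p was 0.1, the smallest possible, both in Pushen against PT and in PT against Sham. Irf8 took 10.4 ± 2.55% in Pushen, 13.9 ± 2.37% in PT and 5.02 ± 0.610% in Sham, with an exact permutation p of 0.3 in Pushen against PT and 0.1 in PT against Sham. The largest difference in share between PT and Sham among the genes with a higher share in PT was that of Irf7, an interferon-induced relative that is no member. It took 18.7 ± 2.81% in Pushen, 12.5 ± 6.65% in PT and 3.02 ± 1.05% in Sham. Irf1 had a share of 13.5 ± 0.0915% in Pushen, 14.7 ± 1.98% in PT and 14.6 ± 1.47% in Sham (exact permutation p = 1 in PT against Sham). Irf2 and Irf3, which are expressed in most tissues, took 11.2 ± 1.37% and 14.4 ± 4.03% in Pushen and 9.62 ± 4.27% and 14.2 ± 2.30% in PT, against 26.3 ± 1.91% and 27.7 ± 2.69% in Sham. Among the C/EBP genes, Cebpa took 31.9 ± 0.783% in Pushen, 33.6 ± 4.26% in PT and 22.3 ± 2.16% in Sham, while Cebpb took 30.04 ± 2.87% in Pushen, 30.1 ± 3.74% in PT and 29.1 ± 1.82% in Sham. A share depends on the other genes in the sum as well as on the gene named.

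**Figure D3:**
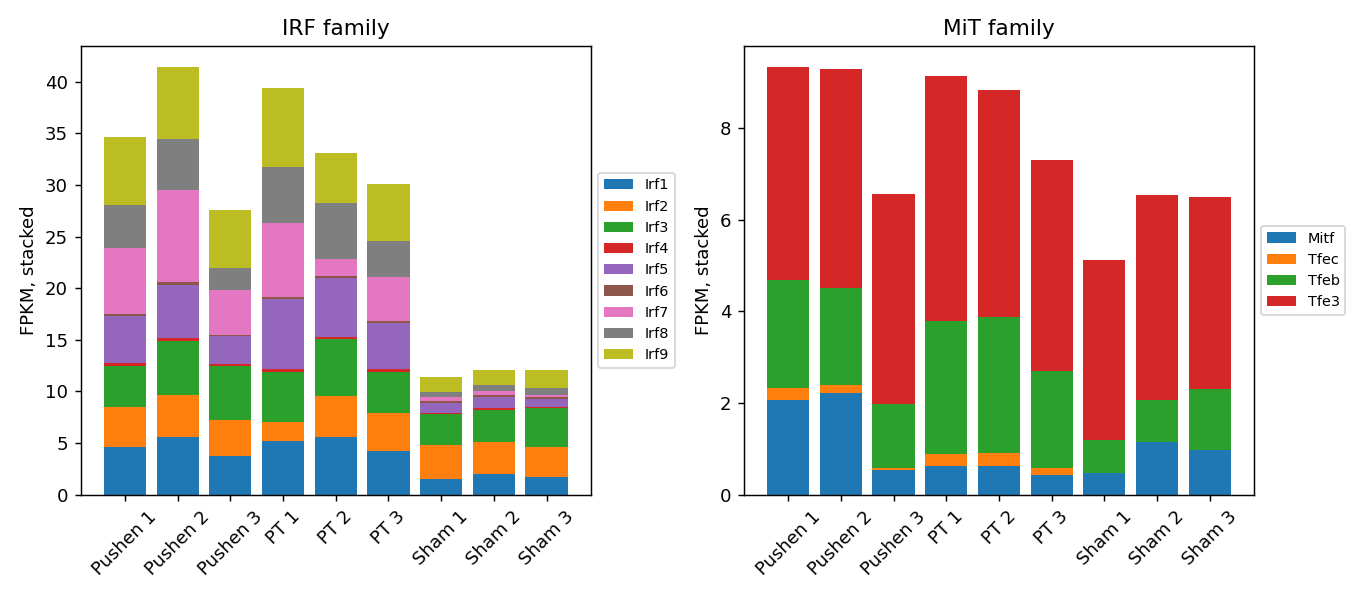
Stacked FPKM of the 9 IRF genes (left) and the 4 MiT genes (right) in each library, in the order Pushen, PT, Sham. The IRF sum is at least 27.62 FPKM in every infarct library and at most 12.12 FPKM in Sham, and Mitf forms a larger block in Pushen libraries 1 and 2 than in any PT library.

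Mitf, at chr6:97807052-98018707 on the plus strand, was not called in any comparison over all 9 libraries. It was at 2.06, 2.21 and 0.55 FPKM in Pushen, 0.63, 0.63 and 0.44 FPKM in PT, and 0.47, 1.16 and 0.97 FPKM in Sham libraries. Pushen libraries 1 and 2 were the highest of all 9, but Pushen library 3 lay within the PT range, and PT and Sham overlapped. The log2 fold change in Pushen against PT was 1.48 ± 0.50 (SE), with a 95% interval of 0.35 to 2.60. Its unadjusted p of 0.0161 became 0.707 after edgeR's adjustment over all genes. PT against Sham gave -0.66 ± 0.49 (edgeR adjusted p = 0.338) and Pushen against Sham gave 0.82 ± 0.49 (edgeR adjusted p = 0.285). Without Pushen library 3, Pushen against Sham was 1.22 with an edgeR adjusted p of 0.0365, and Pushen against PT was 1.88 ± 0.34 with an adjusted p of 0.696. RefSeq gives 3 start windows for Mitf, and counts per gene do not tell transcripts from these starts apart. The 7 melanocyte markers summed to 1.70, 1.56 and 0.47 FPKM in Pushen, 1.42, 1.25 and 1.11 FPKM in PT, and 0.34, 0.21 and 0.34 FPKM in Sham libraries. Tyr and Tyrp1, the enzymes that define pigment cells, were at most 0.02 FPKM in every library. Mlana made up 1.17, 0.99 and 0.19 FPKM of the Pushen sums and 0.75, 0.98 and 0.78 FPKM of the PT sums. It was at most 0.05 FPKM in Sham.

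Tfec, a macrophage-restricted MiT gene at chr6:16833373-16898441 on the minus strand, had 104, 87 and 16 counts in Pushen and 125, 135 and 57 counts in PT libraries, against 0 in each Sham library. It was thus seen in every infarct library, most weakly in Pushen library 3. Set against a floor of 3 counts per Sham library, its level was at least 32.6-fold higher in PT and at least 23.7-fold higher in Pushen. In a fit with no filter on low values it was called higher in both, with edgeR adjusted p-values of 0.00220 in PT against Sham and 0.00413 in Pushen against Sham. In that fit 9.18% and 6.46% of all genes were called higher. Pushen against PT gave -0.46 ± 0.63 (SE) on the log2 scale, with an edgeR adjusted p of 0.920.

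Within the infarct libraries the members shared an order. Pushen library 3 was the lowest of the 6 for 8 of 9 members, Mitf being the exception, and PT library 3 was the lowest PT library for 8 of 9, Cebpa being the exception. Pushen library 3 and PT library 3 were also the lowest of their groups in the summed markers of microglia, of monocytes and border macrophages, and of astrocytes. Of the 12 microglia markers 9 were called higher in PT against Sham, beside 19.1% of all tested genes. Their sums were 195, 206 and 139 FPKM in Pushen, 262, 223 and 171 FPKM in PT, and 87.4, 65.3 and 75.1 FPKM in Sham libraries. Of the monocyte and border macrophage markers, 6 of 7 tested genes were called higher. All 7 had Sham means below the filter and passed it only through their infarct libraries. Their count of calls is thus not independent of their rise. With the untested markers included, the sums were 13.9, 15.1 and 6.50 FPKM in Pushen and 17.1, 12.95 and 12.1 FPKM in PT libraries. In Sham libraries they were 1.66, 1.27 and 1.83 FPKM. Astrocyte markers, all 5 called higher, ranged from 249 to 431 FPKM in Pushen, 306 to 595 FPKM in PT, and 77.4 to 92.8 FPKM in Sham. The summed dendritic cell and T cell markers shared this order, at 4.66 and 3.69 FPKM in Pushen library 3 and 7.46 and 4.50 FPKM in PT library 3. In the dendritic sum the order was that of Itgax, at 1.34 FPKM in Pushen library 3 and 3.33 FPKM in PT library 3. Flt3 went the other way, with 1.73 and 2.22 FPKM in these libraries, the highest of their groups. Cd4 gave 7.15 FPKM of the T cell sum in PT library 1 and 1.02 FPKM in PT library 3, whereas Cd8a and Trac were higher in PT library 3. Melanocyte markers, whose sums are given above, shared the order of low library 3 too. Not all cell types shared this order. Within PT, B cell and mast cell sums were highest in library 3, at 3.65 and 5.81 FPKM. The neutrophil sum was lowest in PT library 1, at 9.48 FPKM. In Pushen the B cell, mast cell and neutrophil sums were lowest in library 3, at 1.11, 5.04 and 3.03 FPKM. Pushen library 3 had the highest neuronal sum of the 6 infarct libraries, at 614 FPKM, and the highest endothelial sum of the Pushen libraries, at 67.5 FPKM. Its oligodendrocyte sum of 511 FPKM lay between those of the other Pushen libraries, at 522 and 478 FPKM. Within PT, however, library 3 had the lowest endothelial and oligodendrocyte sums, at 59.5 and 345 FPKM. The part of these cell types in the members' differences was not tested. Without Pushen library 3, the log2 differences between Pushen and PT were -0.13 for Spi1, 0.03 for Irf1, -0.23 for Irf5, -0.09 for Irf8, 0.08 for Runx1 and -0.13 for Cebpb.

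**Figure D4:**
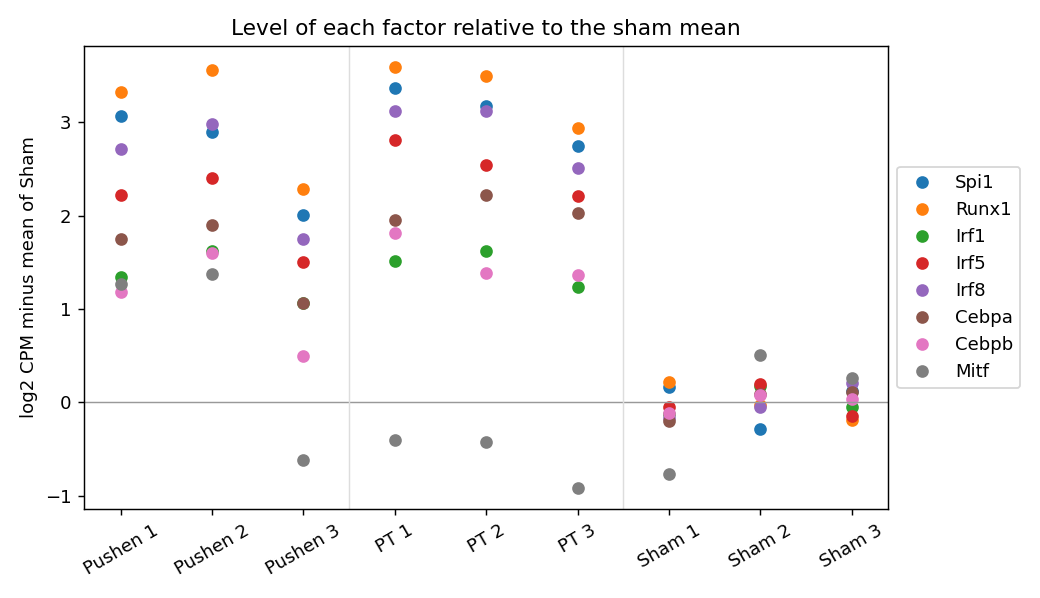
Level of each of the 8 tested factors in each library as log2 CPM (the count scaled to library size) minus the mean of the Sham libraries (vertical axis, log2). Runx1, Spi1 and Irf8 lie highest in all PT libraries, Pushen library 3 sits below the other infarct libraries except for Mitf, and Mitf is below the Sham mean in all PT libraries.

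Each member was also set against the mean log2 CPM of 6 microglia genes, among them Csf1r and Tmem119, in its own library. On this scale Spi1 differed by 1.89, Irf8 by 1.71, Runx1 by 2.14, Irf5 by 1.32 and Cebpa by 0.87 in PT against Sham, each with an exact permutation p of 0.1, the smallest possible. Irf1 differed by 0.25 (exact permutation p = 0.6) and Cebpb by 0.32 (exact permutation p = 0.5), while Mitf differed by -1.79 (exact permutation p = 0.1). Cx3cr1, another of the 6, was uneven, at 7.14 FPKM in Sham library 1 and 0.86 and 1.49 FPKM in the other Sham libraries. With Cx3cr1 and P2ry12, also of the 6, left out, as decided once their values had been seen, the differences were smaller for Spi1 (1.33), Irf8 (1.15), Runx1 (1.58), Irf5 (0.75) and Cebpa (0.30), and turned to -0.31 for Irf1 and -0.25 for Cebpb. The exact permutation p for Cebpa was then 0.3, against 0.1 with 6 genes. Mitf then differed by -2.35 (exact permutation p = 0.1). Irf1 also turned, to -0.03, without Sham library 1. Pushen against PT gave between -0.27 and 0.11 for the members other than Mitf, and 1.48 for Mitf (exact permutation p = 0.1). This scale is not a correction for cell number.

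Relatives, targets and upstream genes were taken from lists drawn from general knowledge, with earlier results of these data known. Their counts stand beside 19.1% of all tested genes called higher and 11.8% called lower in PT against Sham. Of the 21 tested PU.1 target genes all 21 were called higher in PT against Sham, with a median log2 fold change of 3.0 beside -0.00 over all tested genes. They included the lysozyme gene Lyz2 (6.90 ± 0.65) and the endosomal protein Cd68 (3.97 ± 0.38). Of 14 tested IRF1 and IRF8 targets 13 rose, the exception being Psmb10 (0.12 ± 0.11), and the median was 2.65. Among them were Nlrc5, the class I transactivator (3.41 ± 0.23), and the immunoproteasome subunits Psmb8 (2.94 ± 0.24) and Psmb9 (2.84 ± 0.24).

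Of 9 tested C/EBP targets 4 were called higher, beside 19.1% of all tested genes, with a median of 2.45. The iron-siderophore carrier Lcn2 (6.80 ± 0.53), the G-CSF receptor Csf3r (2.45 ± 0.28) and the acute-phase gene Saa3 (6.61 ± 0.95) rose. Lcn2 and Saa3, at Sham means of 0.243 and 0.03 FPKM, passed the filter only through their infarct libraries. The neutrophil genes S100a8 (0.88) and S100a9 (0.93) did not pass the test. Both are among the 3 tested neutrophil markers, of which none was called. The rest of the 8 neutrophil markers lay below the filter and were not tested. Of 15 tested MITF and TFE targets 9 rose and 1 fell, with a median of 0.89. The risers included Gpnmb (7.35 ± 0.65), the acid phosphatase Acp5 (6.14 ± 0.69) and the proton pump subunit Atp6v0d2 (7.83 ± 0.90), all of them expressed in osteoclasts. Atp6v1h, another pump subunit, was the 1 that fell (-0.53 ± 0.11). Among 15 tested upstream cytokines and receptors 9 rose, with a median of 1.08, including Csf1r, the receptor for CSF1 and IL-34 (1.80 ± 0.21), and Csf2ra (1.05 ± 0.15).

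Of the other family genes, 3 of 4 tested IRF relatives rose, with Irf7 at 3.52 ± 0.53, Irf9 at 1.91 ± 0.18 and Irf3 at 0.49 ± 0.15 on the log2 scale. Cebpd (3.02 ± 0.34) was the 1 of 3 tested C/EBP relatives to rise, and Tfeb (1.36 ± 0.26) the 1 of 2 MiT relatives. Among 9 tested RUNX and ETS relatives 4 rose, including the ETS genes Elf4 (2.72 ± 0.30), Elf1 (1.37 ± 0.19) and Ets1 (1.08 ± 0.22). The share called higher among all tested genes was 19.1%. Of 18 other macrophage and microglia transcription factors 9 rose and 1 fell. Batf rose by 3.44 ± 0.50 and Sall1, which maintains microglial identity, by 0.76 ± 0.11, while Zeb2 fell by 0.55. In Pushen against Sham, all 21 PU.1 targets, 13 of 14 IRF1 and IRF8 targets, 4 of 9 C/EBP targets, 8 of 15 MITF and TFE targets and 8 of 15 upstream genes were called higher, and none lower. Over all tested genes, 13.5% were called higher and 2.73% lower in Pushen against Sham. Some genes, such as Csf3r, are in more than 1 list. In Pushen against PT no gene of any of these 10 lists was called, and the list medians lay between -0.32 and 0.17.

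**Figure D5:**
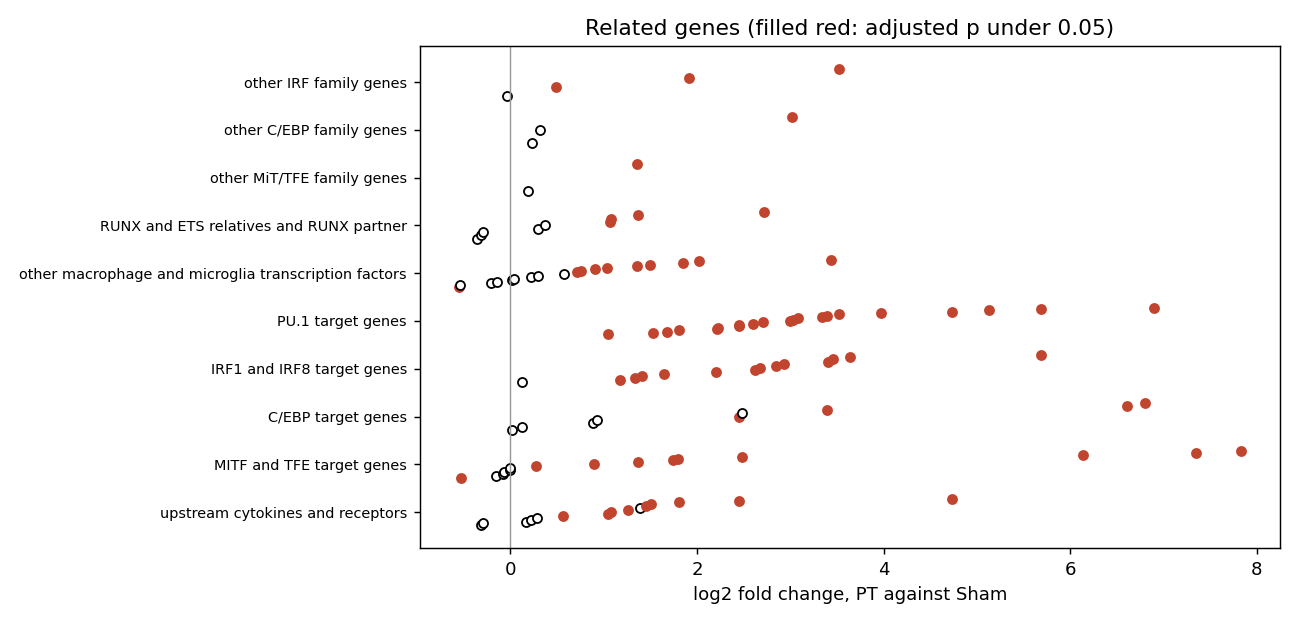
Log2 fold change in PT against Sham (horizontal axis) of each tested gene in the 10 lists of relatives, targets and upstream genes, filled red where the adjusted p is under 0.05. All 21 PU.1 targets and 13 of 14 IRF1 and IRF8 targets are filled and to the right of 0, whereas the RUNX and ETS relatives are split, with 4 of 9 filled. Of all tested genes 19.1% were called higher.

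The genes whose log2 CPM, centred on Sham, stayed nearest to each member over the 9 libraries were found by the root mean square difference. Nearest to Spi1 were Tyrobp, the DAP12 adaptor of microglial receptors (0.134), and Unc93b1, a carrier of Toll-like receptors (0.158). Irf8 had the membrane protease Mmp14 (0.110) and the oncostatin M receptor Osmr (0.121), and Irf5 had Csf3r (0.129) and the actin nucleation subunit Arpc1b (0.131). Runx1 had the collagen cross-linking enzyme Loxl1 (0.117) and the class II loading gene H2-DMb1 (0.146). Cebpa had the kinase Mapkapk3 (0.155) and cathepsin L, Ctsl (0.162), Cebpb had Lrp5 (0.103) and Lrg1 (0.117), and Irf1 had the transporters Slc31a2 (0.110) and Slc13a4 (0.129). For Tfec no such distance is given, since its counts of 0 in Sham leave the centred level to the prior count. No gene came close to Mitf, for which Gabpb1 (0.550) and Ndufaf4 (0.554) were nearest. Between members the nearest pairs were Spi1 with Irf8 (0.232) and Irf1 with Cebpb (0.244).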

How the data were processed

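For each library the authors deposited raw counts of reads per gene, per the file headers. The authors' FPKM values stand beside them and are used to describe levels. The submitters' processing notes name Bowtie 0.12.2 and build mm8, but 51957 of 55141 gene identifiers (94.2%) have the start and end of GENCODE M21, which is on GRCm38. The counter and its strand setting are not stated. Columns were assigned by library name.

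A single edgeR fit (version 4.0.16, R 4.3.3) held all 9 libraries, with scaling by trimmed means of M values (TMM). Fold changes are log2 values with their standard error (SE). The pipeline was tested on simulated data. Alternatives were other filters and scalings, DESeq2 1.42.0, limma 3.58.1 on log2(FPKM + 1) and log2(FPKM + 0.1), only the compared groups, a replicate block and leaving out libraries. Genes named are the 9 members, up to 3 of smallest p in PT against Sham per list and the 2 most like each tested member. Irf2, Irf3, Psmb10, Atp6v1h, S100a8, S100a9 and the marker genes were named after their values were seen. Some genes that the rule or the lists name are not reported here by name. Members and lists were chosen with earlier results of these data known. Promoters were searched on both strands for the PU.1 core GAGGAA, the interferon response element GAAANNGAAA and the gamma-activated site TTCNNNGAA. The MiT boxes CACGTG and also CATGTG, and the RUNX motif TGTGGT, were searched in the same way. So were the letters TTGCNNCAA, listed for C/EBP but a base longer than its usual site. Plots used matplotlib 3.10.9 (Python 3.11.15).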

Additional observations from a re-analysis of the deposited data

How the results depend on the processing

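Over the alternative settings and single-library omissions, all 159 log2 fold changes of members in PT against Sham kept direction and call, as did 157 of 159 for Pushen and PT and 156 of 159 for Pushen and Sham. Over single-library omissions the members called numbered 7 throughout in PT against Sham, 0 between Pushen and PT, and 6 to 8 between Pushen and Sham. Cebpb lost its call in Pushen against Sham without Sham library 1 or 2, and Mitf gained one without Pushen library 3. In Pushen against PT, Irf1 ranged from -0.25 to 0.026 and Runx1 from -0.48 to 0.077, with the change of sign without Pushen library 3.

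Relative to microglia genes, 122 of 128 values kept direction. In PT against Sham, Irf1 ranged from -0.029 to 0.53 over single-library omissions, and with 4 microglia genes Irf1 was -0.31 and Cebpb -0.25. For Pushen and PT, Irf1 ranged from -0.00012 to 0.20, Irf8 from -0.43 to 0.042 and Runx1 from -0.29 to 0.21. The cause was not tested.

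Over the same omissions, genes called across the whole table ranged from 3198 to 5799 in PT against Sham, 0 to 5 between Pushen and PT, and 1538 to 3736 between Pushen and Sham. For Pushen and PT, DESeq2 called 49, a fit of those groups alone 1, and a fit without PT library 1 and Pushen library 2 gave 2. Replicate numbers did not pair the libraries, with correlations of same-numbered libraries between -0.228 and 0.0729. With the replicate block, members called were 7 in PT against Sham, 0 for Pushen and PT, and 7 for Pushen and Sham, and genes called were 4266, 0 and 2108 in that order. Runx1 and Tfec rest on few reads in Sham, which limits the precision of their fold changes.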
